A study of Mus musculus with 16 samples.

Results

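The genes described here are 8 genes of the reproductive axis, namely the peptide genes *Gnrh1*, *Kiss1* and *Tac2*, the neurokinin B receptor gene *Tacr3*, the steroid receptor genes *Esr1*, *Esr2* and *Pgr*, and *Cyp19a1*, which encodes aromatase. They were chosen by name for their role and matched to Ensembl identifiers, 8 of the 55401 genes in the deposited tables. The filter on low counts left 15808 genes for testing, among them 6 of the 8. *Kiss1* and *Cyp19a1* fell under it.

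Gonadotropin-releasing hormone, the product of *Gnrh1*, is made by scattered neurons of the preoptic area and basal forebrain and drives the release of the gonadotropins from the pituitary. Kisspeptin, from *Kiss1*, excites these neurons, and arcuate neurons that make kisspeptin also make neurokinin B, from *Tac2*, and carry its receptor. Oestrogen and progesterone receptors in the hypothalamus report the level of gonadal steroids, and aromatase makes oestradiol from testosterone in the brain as well as in the gonads.

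The data are RNA-seq libraries of the whole hypothalamus of 16 male mice, 3 months old, housed under lights that alternated with darkness. Of the mice taken at ZT13, soon after lights off, 4 were ASIC1a-/- and 4 wild type (WT), and of those taken at ZT1, soon after lights on, another 4 were ASIC1a-/- and 4 WT (ZT counts the hours since lights on). ASIC1a is an acid-sensing ion channel subunit encoded by *Asic1*. Its deletion in the ASIC1a-/- mice was global and not limited to a cell type, both genotypes came from heterozygous breeding on a C57BL/6 background, and no mouse carried another allele or received an agent. Each library came from another mouse, so times as well as genotypes were compared between animals, and all mice were male, so that the ovarian cycle is not part of these data. The question addressed is whether transcripts of the reproductive axis differed with the loss of ASIC1a, with the time of day, or with both.

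Libraries held 34888522 to 42326259 expected counts each (median 35750448). *Asic1* was at 69.9 to 71.9 CPM (the count scaled to the library total) in the ASIC1a-/- libraries, and 97.1 to 102 CPM in the WT libraries at ZT13, and at 64.9 to 70.0 CPM in the ASIC1a-/- libraries, and 101 to 106 CPM in WT libraries at ZT1, so that no library went against its labelled genotype. Of 10 markers of the hypothalamus, 10 passed the filter and none was at 0 in every library. Their summed level was 1299 to 1499 CPM in the ASIC1a-/- mice, and 1086 to 1508 CPM in WT libraries at ZT13, and 1147 to 1478 CPM in the ASIC1a-/- mice, and 1192 to 1469 CPM in WT libraries at ZT1. ASIC1a-/- replicate 2 at ZT13 and ASIC1a-/- replicate 4 at ZT1 stood apart by 9 markers of the meninges, with summed levels of 191 and 372 CPM where the medians of the 4 groups were 52.3 to 87.5 CPM. Over 8 markers of the thalamus, 1 WT library at ZT1 summed to 243 CPM, where the medians of the 4 groups were 161 to 171 CPM.

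The 3 peptide genes are each shown by a stretch of coding sequence that spells a peptide of 10 residues. For *Gnrh1* this is gonadotropin-releasing hormone and for *Tac2* neurokinin B. For *Kiss1* it is kisspeptin-10, a short form of kisspeptin, and *Kiss1* shares this stretch with a second gene. Capitals mark the 30 bases that encode the 10 residues of each peptide, and the lower case bases after them encode the residues at which the precursor is cut and amidated. The stretches lie at chr14:67746409-67746438 in exon 2 of 4 (*Gnrh1*), chr1:133329580-133329609 in exon 2 of 2 (*Kiss1*) and chr10:127729116-127729145 in exon 5 of 7 (*Tac2*), all on the plus strand of GRCm38 and all coding.
Gnrh1: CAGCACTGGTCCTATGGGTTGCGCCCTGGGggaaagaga
Kiss1: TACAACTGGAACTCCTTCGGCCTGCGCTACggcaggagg
Tac2: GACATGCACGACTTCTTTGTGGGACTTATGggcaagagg

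Transcript levels of the 8 genes in whole hypothalamus spanned a wide range, with *Tac2* far above the others and *Kiss1*, *Esr2* and *Cyp19a1* near the floor of the measurement. The TPM scale allows genes to be compared. It divides by effective length, the part of a transcript in which a fragment can start, which corrects short transcripts such as *Gnrh1* the most. On this scale *Tac2* averaged 75.4 ± 3.81 TPM and *Tacr3* 12.7 ± 1.09 TPM (SD over the 16 libraries). *Pgr* averaged 8.10 ± 0.510 TPM, *Gnrh1* 7.97 ± 2.32 TPM and *Esr1* 5.71 ± 0.470 TPM. The lowest were *Kiss1* at 0.539 ± 0.628 TPM, *Esr2* at 0.504 ± 0.142 TPM and *Cyp19a1* at 0.451 ± 0.132 TPM. In this order the ranges of *Tac2* and *Tacr3*, of *Tacr3* and *Pgr*, and of *Esr1* and *Kiss1* did not overlap. The neighbours *Pgr* and *Gnrh1* did overlap, and *Pgr* was the higher in 10 of 16 libraries. The ranges of *Gnrh1* and *Esr1* overlapped too, though *Gnrh1* was the higher in 14 of 16 libraries. *Kiss1* was above *Esr2* in 6 libraries and *Esr2* above *Cyp19a1* in 10, so the order of *Pgr* and *Gnrh1* and that of the lowest 3 genes do not stand out from the spread.

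The counts behind these levels did not follow their order, because long transcripts yield more fragments. *Pgr* had 865 to 1092 counts per library, *Tacr3* 672 to 985, *Tac2* 652 to 846 and *Esr1* 546 to 733. *Gnrh1*, with a mean transcript length of 471 bp against 6598 bp for *Pgr*, had only 27 to 76 counts at a similar TPM. *Esr2* had 17 to 50 and *Cyp19a1* 10 to 27 counts. Among mice of the same group, the coefficient of variation was 5.05% for *Tac2*, 5.46% for *Pgr* and 6.03% for *Esr1*, against 3.67%, 3.20% and 3.99% that counting error alone would give. *Tacr3* varied more at a like depth, by 9.53% against 3.42%. *Gnrh1* varied by 21.7% against 14.4%, *Esr2* by 25.7% against 19.0% and *Cyp19a1* by 24.7% against 23.2%, so that for *Cyp19a1* counting error came close to the whole of the spread between mice.

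**Figure D1:**
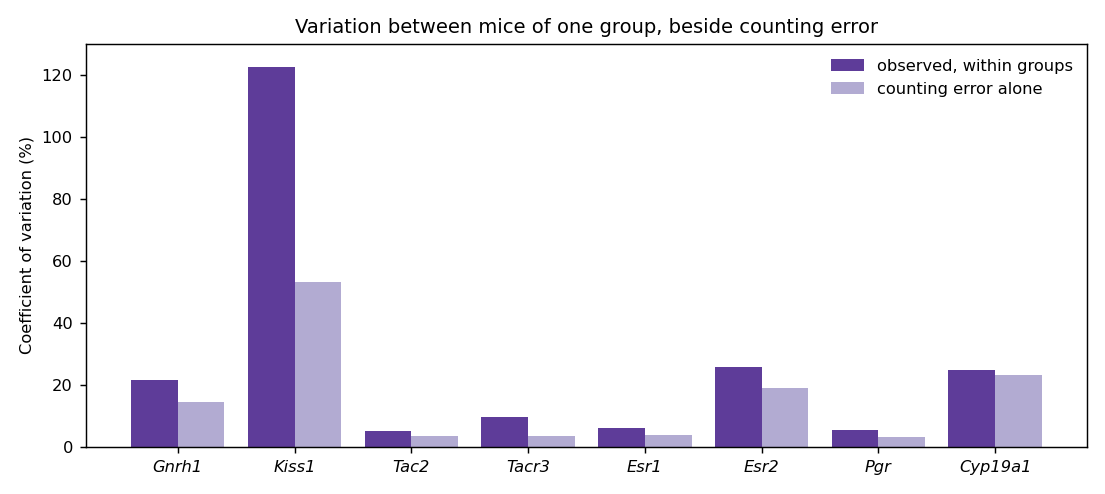
Coefficient of variation in percent of each of the 8 genes between mice of the same group (dark bars), beside the value that counting error alone would give at the counts of that gene (light bars). *Tac2*, *Tacr3*, *Esr1* and *Pgr* lie under 10%, *Kiss1* reaches 123%, and for *Cyp19a1* the bars are nearly equal.

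*Gnrh1* (ENSMUSG00000015812, chromosome 14, 67745181 to 67749439, plus strand, GRCm38), whose decapeptide stretch is printed above, was the only one of the 6 tested genes to pass in any comparison. Its level rose at ZT13 relative to ZT1, in WT hypothalamus. At ZT13 it was at 1.55, 1.36, 1.18 and 1.22 CPM in the ASIC1a-/- mice, and at 1.37, 2.13, 2.15 and 1.67 CPM in the WT mice. At ZT1 it was at 1.34, 1.29, 0.751 and 1.09 CPM in the ASIC1a-/- mice, and at 0.782, 1.52, 1.10 and 0.998 CPM in the WT mice. The WT mice at ZT13 held the highest values of the series, but the lowest of them lay under the highest WT mouse at ZT1, so these groups overlapped by 1 mouse on each side.

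In WT mice *Gnrh1* averaged 1.83 ± 0.380 CPM at ZT13 and 1.10 ± 0.309 CPM at ZT1 (SD, n = 4 each), a log2 change of 0.74 (SE 0.218, 95% interval 0.28 to 1.19, adjusted p = 0.0320 by edgeR's quasi-likelihood test). This was 1 of 6 tested members, where 13.3% of all tested genes passed in that comparison (7.52% higher and 5.76% lower), so the count of members is near the background. In ASIC1a-/- mice *Gnrh1* averaged 1.33 ± 0.169 CPM at ZT13 and 1.12 ± 0.268 CPM at ZT1, a log2 change of 0.24 (SE 0.222, 95% interval -0.22 to 0.71, adjusted p = 0.519 by edgeR). None of the 6 passed there, where 11.3% of all tested genes did (6.72% higher and 4.62% lower). The difference between the genotypes in this change with time, tested as an interaction, was -0.49 on the log2 scale (SE 0.311, 95% interval -1.15 to 0.16, unadjusted p = 0.132, adjusted p = 1.00 by edgeR), so the change in the WT mice is not shown to differ from that in ASIC1a-/- mice. In whole tissue, fewer cells of a type and less RNA per cell cannot be told apart.

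At ZT13 *Gnrh1* averaged 1.33 CPM in the ASIC1a-/- mice, and 1.83 CPM in the WT mice, a log2 change of -0.47 (SE 0.213, 95% interval -0.91 to -0.02), which had an unadjusted p of 0.0422 and an adjusted p of 1.00 by edgeR. At ZT1 the genotypes averaged 1.12 CPM in the ASIC1a-/- mice, and 1.10 CPM in the WT mice, a log2 change of 0.02 (SE 0.227, 95% interval -0.45 to 0.50, adjusted p = 0.990 by edgeR). The WT mice at ZT13 thus differed from each neighbouring group in value, but only the comparison with WT mice at ZT1 passed. On the TPM scale *Gnrh1* averaged 7.96 ± 1.03 in the ASIC1a-/- mice, and 10.8 ± 2.19 in the WT mice at ZT13, and 6.48 ± 1.26 in the ASIC1a-/- mice, and 6.67 ± 1.91 in the WT mice at ZT1.

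**Figure D2:**
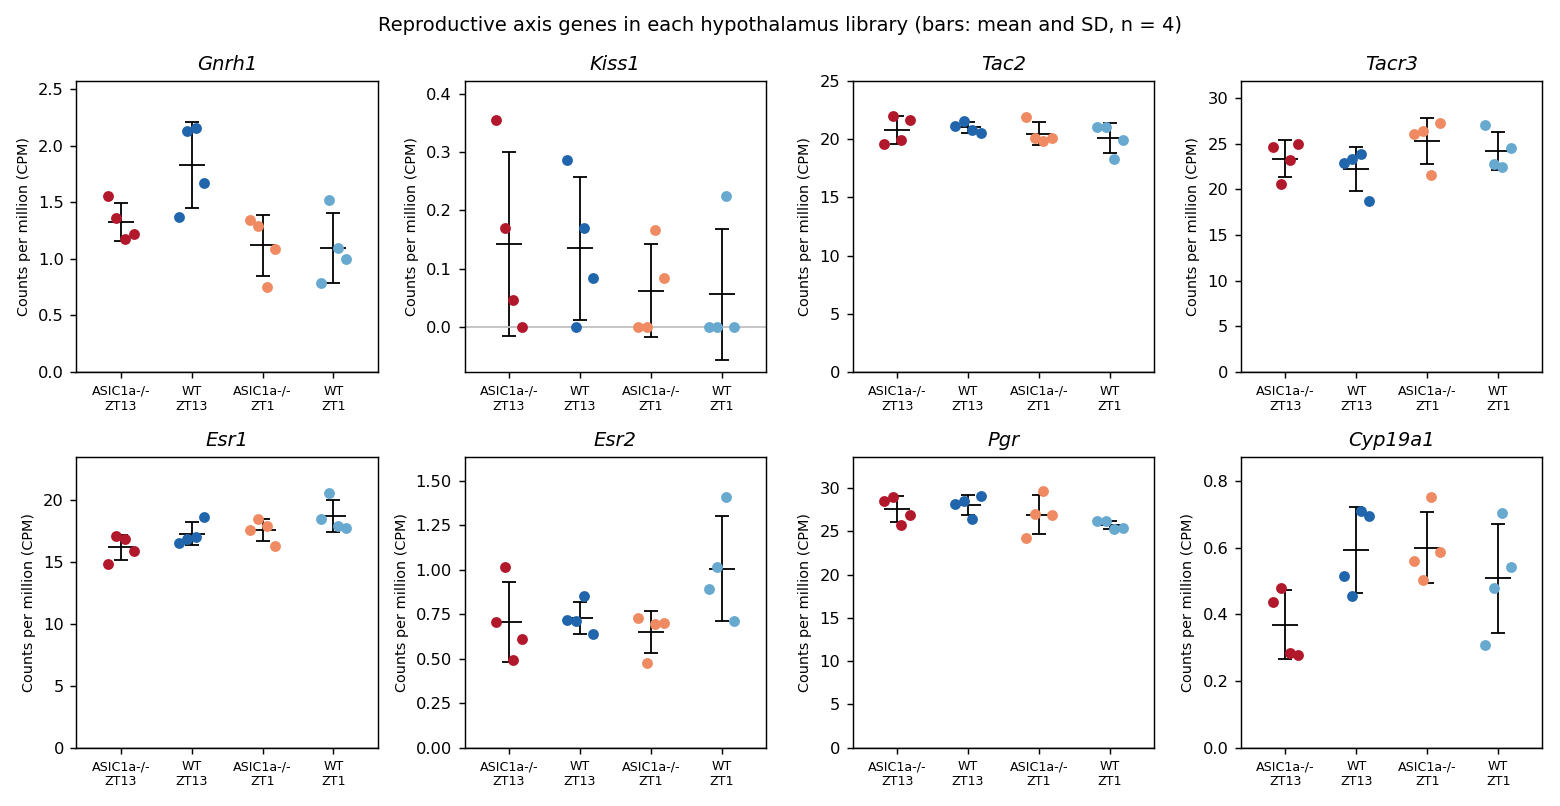
TMM-normalized CPM of each of the 8 genes (y axis, from 0 or just under it) in every library (dots) of the 4 groups (x axis), a dash at each group mean and bars for the SD (n = 4). *Gnrh1* averages 1.83 CPM in the WT mice at ZT13 and 1.10 CPM in the WT mice at ZT1, while *Tac2* lies between 18.3 and 22.0 CPM in all 16 libraries.

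The call for *Gnrh1* rested on few counts and lay near the threshold. Its adjusted p ranged from 0.0140 to 0.0956 over 26 alternatives, with a log2 change of 0.60 to 0.93. The call was lost without WT ZT1 replicate 1 (adjusted p = 0.0942), replicate 3 (0.0650) or replicate 4 (0.0861), and without WT ZT13 replicate 2 (0.0870), replicate 3 (0.0956) or replicate 4 (0.0520). In those fits the log2 change was 0.60 to 0.78 and its SE 0.224 to 0.245, beside 0.74 and 0.218 with all libraries.

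Some markers of other tissues and cell types passed for ZT13 against ZT1 in the WT mice, where 13.3% of all tested genes did. Of 8 pituitary markers, 5 were tested, and *Gh*, *Prl*, *Cga* and *Fshb* passed in that comparison, all higher at ZT13. Among WT libraries *Prl*, *Cga* and *Fshb* exceeded 1 CPM only at ZT13, *Fshb* in replicate 4 alone (1.56 CPM). In ASIC1a-/- libraries at ZT1 they reached 2.38, 6.28 and 1.14 CPM. *Tshb*, *Lhb* and *Pou1f1* stayed under 1 CPM and were not tested. The filter thus shaped which markers were tested, and their count is not set against the 13.3%. *Gh*, the growth hormone gene, was at 4.31 to 26.7 CPM in WT libraries of ZT13, against 0.253 to 2.67 CPM in WT libraries of ZT1, with no overlap. The summed level of the 8 was 231 to 256 CPM in the ASIC1a-/- mice, and 243 to 291 CPM in the WT mice at ZT13, and 242 to 244 CPM in the ASIC1a-/- mice, and 236 to 242 CPM in the WT mice at ZT1. That sum is almost wholly *Chgb*, which the brain also expresses. Without *Chgb* (left out after its values were seen) the other 7 summed to 0.730 to 10.4 CPM in the ASIC1a-/- mice, and 5.90 to 41.3 CPM in the WT mice at ZT13, and to 4.81 to 14.2 CPM in the ASIC1a-/- mice, and 0.534 to 3.60 CPM in the WT mice at ZT1. *Lhb* and *Pou1f1* were at 0 in every ASIC1a-/- library at ZT13 and every WT library at ZT1. Of 4 markers of the preoptic area, where many GnRH neurons lie, none passed in that comparison and none was at 0 in every library. Their summed level was 5.63 to 7.01 CPM in the ASIC1a-/- mice, and 5.57 to 6.42 CPM in the WT mice at ZT13, and 5.24 to 10.3 CPM in the ASIC1a-/- mice, and 5.84 to 6.16 CPM in the WT mice at ZT1. The sum hid opposed members. In the WT mice *Moxd1* averaged 2.37 CPM at ZT13 and 2.89 CPM at ZT1. *Hmx2* (1.36 and 1.31), *Hmx3* (1.62 and 1.28) and *Lhx8* (0.700 and 0.507) averaged higher at ZT13. The 10.3 CPM was that of ASIC1a-/- replicate 4 at ZT1, high in meningeal markers, where *Moxd1* was at 7.93 CPM. Of 8 endothelial markers 2 were higher (*Ly6c1*, *Slco1a4*) and 2 lower (*Cldn5*, *Tek*) at ZT13 in the WT mice. The astrocyte markers *Gja1* and *Slc7a10*, the oligodendrocyte marker *Cnp*, the microglial marker *Cx3cr1*, the neuronal marker *Slc17a6* and the striatal marker *Pde10a* were lower, while *Dio2* of tanycytes and *Lhx1* and *Vipr2* of the suprachiasmatic nucleus were higher. No marker of the hypothalamus, arcuate nucleus, ventromedial nucleus, thalamus or meninges lists passed. The part of these tissues and cell types in the *Gnrh1* result was not tested.

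*Kiss1* (ENSMUSG00000116158, chromosome 1, 133321875 to 133329901, plus strand) could not be measured on its own in these tables. RSEM divides a fragment that fits several genes between them, and both annotated *Kiss1* transcripts, of 779 and 496 bp, lie wholly (100% of their bases) within exons of *Gm28040*, a read-through gene that begins in the exons of its neighbour *Golt1a* and ends in those of *Kiss1*. The kisspeptin-10 stretch printed above occurs in all 5 annotated transcripts of *Gm28040*. *Kiss1* itself was given 12.95, 5.53, 1.89 and 0 expected counts in the ASIC1a-/- mice, and 9.95, 0, 6.02 and 2.51 in the WT mice at ZT13. At ZT1 it was given 0, 0, 6.25 and 2.79 in the ASIC1a-/- mice, and 0, 0, 7.94 and 0.39 in the WT mice. Zeros occurred in all 4 groups, in 6 libraries in all.

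*Gm28040* was given 3.05 to 26 counts per library, and *Kiss1* took from 0 to 76.5% of the counts of both genes. The 7 other members had a posterior SD of 0 for their count in the deposited tables, which means that their reads were not shared, whereas that of *Kiss1* was 1.29 to 4.25. A *Kiss1* value of 0 here therefore does not say that no fragment came from *Kiss1* exons. The sum of both genes also counts fragments from the exons that *Gm28040* does not share with *Kiss1*.

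Summed over *Kiss1* and *Gm28040*, the counts were 22, 15, 13 and 7 in the ASIC1a-/- mice, and 13, 14, 11 and 12 in the WT mice at ZT13. At ZT1 they were 16, 26, 27 and 14 in the ASIC1a-/- mice, and 19, 11, 24 and 19 in the WT mice. The groups overlapped at both times and in both genotypes. In ASIC1a-/- mice the sum averaged 14.3 ± 6.18 counts at ZT13 and 20.8 ± 6.70 at ZT1 (two-sided exact permutation test of the summed CPM, p = 0.171, adjusted over 4 comparisons p = 0.343). In WT mice it averaged 12.5 ± 1.29 at ZT13 and 18.3 ± 5.38 at ZT1 (exact p = 0.143, adjusted p = 0.343). Between ASIC1a-/- and WT mice the exact p was 0.771 at ZT13 and 0.657 at ZT1, and 4 against 4 mice can give no exact p under 0.0286.

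A fit of all genes without the low-count filter shows how the division bears on a test. In WT mice the log2 fold change of ZT13 over ZT1 was 1.21 for *Kiss1* alone (SE 1.01, adjusted p = 0.623) and -1.22 for the *Gm28040* entry ENSMUSG00000115958 (SE 0.373, adjusted p = 0.0460), both by edgeR. For the sum of the genes it was -0.53 (SE 0.333, adjusted p = 0.492 by edgeR). In ASIC1a-/- mice the values were 1.13 for *Kiss1* (SE 0.982, adjusted p = 0.624), -1.08 for that *Gm28040* entry (SE 0.352, adjusted p = 0.0715) and -0.60 for the sum (SE 0.322, adjusted p = 0.382). The sum also holds a second *Gm28040* entry, ENSMUSG00000098306 (1.60, SE 1.43, in the WT mice and -1.59, SE 1.53, in ASIC1a-/- mice). Over all libraries *Gm28040* was given 207 of the 263 summed counts, so the sum is not a measure of *Kiss1*. *Kiss1* alone and the sum had opposite signs but neither passed, and no direction is drawn for *Kiss1*.

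**Figure D3:**
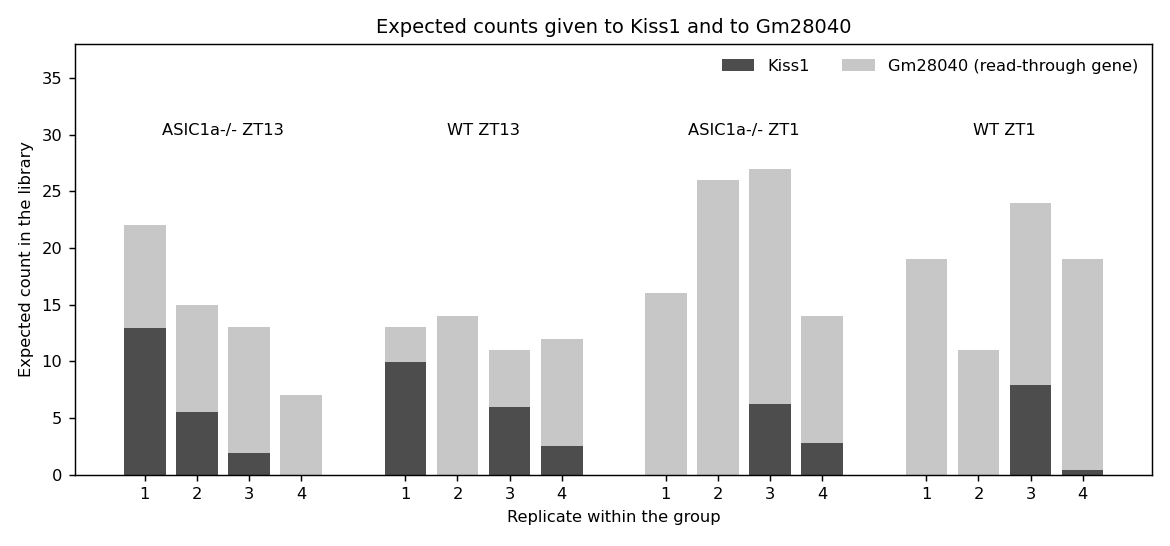
Expected counts (y axis) that RSEM gave to *Kiss1* (dark) and to the read-through gene *Gm28040* (light), stacked, in each of the 4 libraries of each group (x axis). The stacks reach 7 to 27 counts, and the dark share is 0 in 6 libraries and up to 76.5% in another.

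*Tac2* (ENSMUSG00000025400, chromosome 10, 127724478 to 127731768, plus strand), which encodes neurokinin B, was the most even of the members. It was at 19.6, 22.0, 19.9 and 21.7 CPM in the ASIC1a-/- mice, and 21.1, 21.6, 20.8 and 20.5 CPM in the WT mice at ZT13. At ZT1 the values were 21.9, 20.1, 19.8 and 20.1 CPM in the ASIC1a-/- mice, and 21.1, 21.1, 18.3 and 20.0 CPM in the WT mice. All 4 groups overlapped. Its log2 fold changes were -0.02 (95% interval -0.12 to 0.09) for ASIC1a-/- against WT at ZT13, 0.03 (-0.08 to 0.13) at ZT1, 0.02 (-0.09 to 0.13) for ZT13 against ZT1 in the ASIC1a-/- mice, and 0.06 (-0.04 to 0.17) in the WT mice. None passed, and each interval bounds the change at less than 0.18 on the log2 scale in either direction.

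*Tacr3* (ENSMUSG00000028172, chromosome 3, 134829007 to 134934579, plus strand) encodes the receptor of neurokinin B. It was at 24.7, 20.6, 23.2 and 25.0 CPM in the ASIC1a-/- mice, and 22.9, 23.4, 23.9 and 18.7 CPM in the WT mice at ZT13. At ZT1 its level was 26.1, 26.3, 21.6 and 27.3 CPM in the ASIC1a-/- mice, and 27.0, 22.8, 22.4 and 24.5 CPM in the WT mice. The groups overlapped throughout. The change of ZT13 over ZT1 was -0.12 in ASIC1a-/- (SE 0.0846, adjusted p = 0.414) and -0.12 in the WT mice (SE 0.0857, adjusted p = 0.389), and the genotypes differed by 0.07 at each time (SE 0.0856 at ZT13 and 0.0848 at ZT1, adjusted p = 1.00 and 0.894), all by edgeR.

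*Esr1* (ENSMUSG00000019768, chromosome 10, 4611593 to 5005614, plus strand) encodes oestrogen receptor alpha, the receptor through which oestradiol acts on kisspeptin neurons. It was at 14.9, 17.1, 16.9 and 15.9 CPM in the ASIC1a-/- mice, and 16.5, 16.9, 17.0 and 18.7 CPM in the WT mice at ZT13. At ZT1 its values were 17.6, 18.5, 17.9 and 16.3 CPM in the ASIC1a-/- mice, and 18.5, 20.6, 17.9 and 17.8 CPM in the WT mice. Values overlapped between genotypes at both times. Averaged over both times, the log2 fold change of ASIC1a-/- against WT was -0.09 (SE 0.0414, 95% interval -0.18 to -0.01), with an unadjusted p of 0.0382 and an adjusted p of 0.723 by edgeR. It was -0.09 at ZT13 (SE 0.0588) and -0.09 at ZT1 (SE 0.0582). ZT13 against ZT1 gave -0.12 in ASIC1a-/- (SE 0.0586, adjusted p = 0.206) and -0.11 in the WT mice (SE 0.0584, adjusted p = 0.216), neither of which passed.

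None of the 6 members passed for ASIC1a-/- against WT at ZT13, at ZT1 or averaged over both times, where 0.101%, 0.0127% and 0.0633% of all tested genes did, nor for the interaction, where 0.019% did. With so few genes called in all, a count of 0 among 6 carries little. At an unadjusted p under 0.05, 1 member passed at ZT13 (*Gnrh1*), 1 at ZT1 (*Esr2*), 1 in the average (*Esr1*) and 0 in the interaction, where 3.74%, 7%, 6.8% and 3.91% of all genes did. DESeq2 called 0 of the members in each of these comparisons.

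*Esr2* (ENSMUSG00000021055, chromosome 12, 76120419 to 76177259, minus strand) encodes oestrogen receptor beta. It was at 0.708, 1.02, 0.495 and 0.610 CPM in the ASIC1a-/- mice, and 0.715, 0.710, 0.851 and 0.640 CPM in the WT mice at ZT13. At ZT1 *Esr2* was at 0.727, 0.476, 0.696 and 0.698 CPM in the ASIC1a-/- mice, and 0.894, 1.01, 1.41 and 0.713 CPM in the WT mice. It passed the filter of 1 CPM through only 3 libraries, of which 2 were WT at ZT1 and 1 was ASIC1a-/- at ZT13. At ZT1 *Esr2* averaged 0.649 ± 0.116 CPM in the ASIC1a-/- mice, and 1.01 ± 0.294 CPM in the WT mice, a log2 change of -0.63 (SE 0.248, 95% interval -1.15 to -0.11, unadjusted p = 0.0205, adjusted p = 0.680 by edgeR). At ZT13 the genotypes differed by -0.05 (SE 0.252, 95% interval -0.58 to 0.48), and the interaction was 0.58 (SE 0.354, adjusted p = 1.00 by edgeR). The change of ZT13 over ZT1 was 0.11 in ASIC1a-/- (SE 0.256) and -0.46 in the WT mice (SE 0.245, adjusted p = 0.234). The interval at ZT1 lay below 0, but at 17 to 50 counts a library no comparison of *Esr2* passed after adjustment over all tested genes.

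*Pgr* (ENSMUSG00000031870, chromosome 9, 8899833 to 8968611, plus strand) encodes the progesterone receptor, an oestrogen-induced gene in the hypothalamus of rodents. It was at 28.6, 29.0, 25.7 and 27.0 CPM in the ASIC1a-/- mice, and 28.2, 28.5, 26.4 and 29.1 CPM in the WT mice at ZT13. At ZT1 it was at 24.2, 27.1, 29.6 and 26.9 CPM in the ASIC1a-/- mice, and 26.2, 26.2, 25.3 and 25.3 CPM in the WT mice. The WT mice at ZT13 all lay above the WT mice at ZT1, but the share of all tested genes without such overlap was not counted. The ASIC1a-/- mice at ZT13 and at ZT1 overlapped. In WT mice *Pgr* averaged 28.1 ± 1.14 CPM at ZT13 and 25.8 ± 0.503 CPM at ZT1, a log2 change of 0.12 (SE 0.0525, 95% interval 0.01 to 0.23), with an unadjusted p of 0.0308, as 27.1% of all genes had one under 0.05, and an adjusted p of 0.137 by edgeR. In ASIC1a-/- mice the change was 0.03 (SE 0.0521, adjusted p = 0.751), and the interaction was -0.09 (SE 0.0739, adjusted p = 1.00 by edgeR). ASIC1a-/- and WT mice differed by -0.03 at ZT13 (SE 0.0520) and 0.07 at ZT1 (SE 0.0526), neither of which passed.

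**Figure D4:**
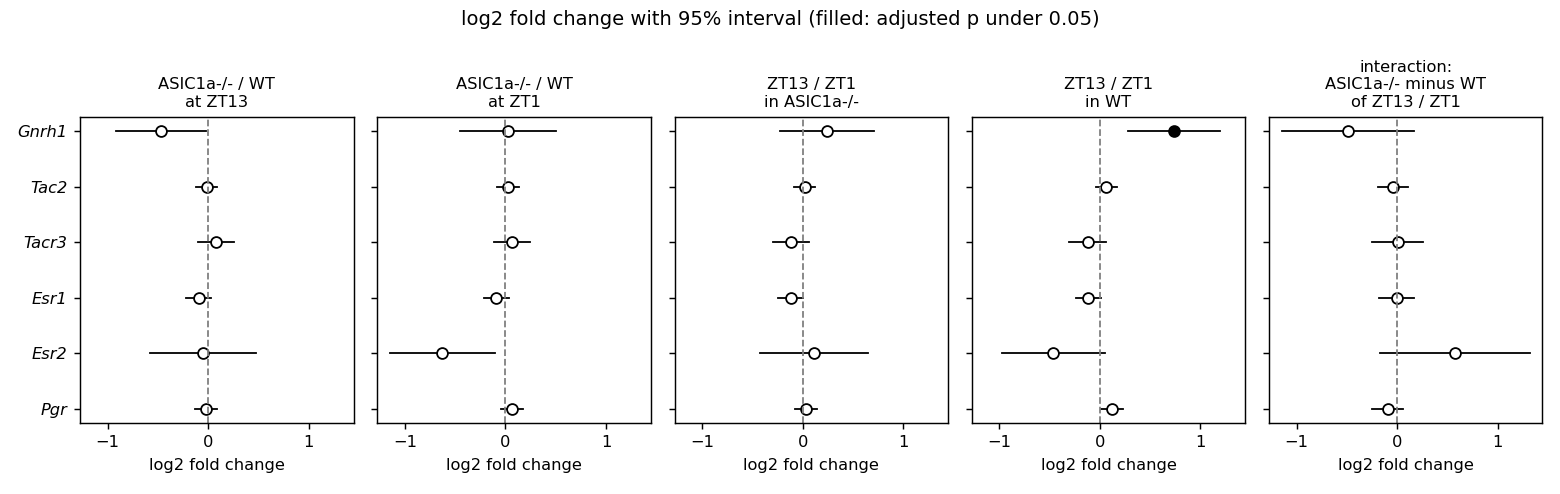
The log2 fold change (x axis) of the 6 tested members in 4 comparisons of 2 groups and in the interaction of genotype and time, with 95% intervals (lines). The single filled point, with an adjusted p under 0.05, is *Gnrh1* for ZT13 against ZT1 in the WT mice at 0.74, and the widest intervals are those of *Gnrh1* and *Esr2*.

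*Cyp19a1* (ENSMUSG00000032274, chromosome 9, 54165937 to 54268110, minus strand) stayed under 1 CPM in every library and was not tested with the others. It had 16, 17, 12 and 10 counts in the ASIC1a-/- mice, and 18, 16, 25 and 25 counts in the WT mice at ZT13. At ZT1 it had 20, 18, 27 and 21 counts in the ASIC1a-/- mice, and 11, 17, 25 and 19 counts in the WT mice. The ASIC1a-/- mice at ZT13 were the lowest group, but they overlapped the WT mice at the same time. In CPM, which allows for library size, *Cyp19a1* averaged 0.369 ± 0.104 in the ASIC1a-/- mice, and 0.593 ± 0.128 in the WT mice at ZT13, and 0.600 ± 0.106 in the ASIC1a-/- mice, and 0.507 ± 0.164 in the WT mice at ZT1.

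Without the filter, the log2 fold change of *Cyp19a1* for ASIC1a-/- against WT at ZT13 was -0.69 (SE 0.298, unadjusted p = 0.0270, adjusted p = 0.949 over 30876 genes by edgeR). For ZT13 against ZT1 it was -0.70 in ASIC1a-/- (SE 0.297, unadjusted p = 0.0239, adjusted p = 0.212) and 0.23 in the WT mice (SE 0.288, adjusted p = 0.750), and the interaction was -0.93 (SE 0.413, unadjusted p = 0.0309, adjusted p = 1.00 by edgeR). None of these passed.

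The members showed no shared pattern of variation between mice that passed a test. Over the 16 libraries, with group means removed from log2 CPM, the 28 pairs of members had Pearson correlations of -0.64 to 0.71, and 0 pairs passed after adjustment over the 28 (5 had an unadjusted permutation p under 0.05, 100000 permutations within groups). The highest was that of *Kiss1* and *Cyp19a1* (r = 0.71, permutation p = 0.0117, adjusted p = 0.200, and Spearman's rho = 0.74, permutation p = 0.00502, adjusted p = 0.141), which was 0.61 after the 2 libraries most distant from the *Kiss1* median were left out. The lowest was that of *Tacr3* and *Cyp19a1* (r = -0.64, permutation p = 0.0143, adjusted p = 0.200, and rho = -0.52, permutation p = 0.0724, adjusted p = 0.405), which was -0.59 without the 2 most distant libraries. *Tac2* and *Tacr3*, the peptide and its receptor, had r = 0.19 (permutation p = 0.499, rho = 0.18, permutation p = 0.542). *Esr1* and *Pgr* had r = 0.13 (permutation p = 0.642, rho = 0.18, permutation p = 0.559). *Kiss1* and *Cyp19a1* are both of few counts, and the division of *Kiss1* reads described above enters each of its correlations.

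For each tested member the genes most like it in this mouse to mouse variation are given by r alone, over the 16 libraries and among 14965 or 14966 genes with a mean of at least 1 CPM. *Gnrh1* was closest to *Pcyt1a* (r = 0.87), *Borcs8* (0.86) and *Cd180* (0.85). *Tacr3* was closest to *Caln1* (0.92), *Ppm1b* (0.91) and *Asah2* (0.89), and *Tac2* to *Ddost* (0.79), *Cenpq* (0.78) and *Fcgr1* (0.78). *Esr1* was closest to *Tmem107* (0.90), *4930466K18Rik* (0.87) and *B430305J03Rik* (0.86), *Esr2* to *Zfp169* (0.88), *Scrn2* (0.82) and *Lpxn* (0.81), and *Pgr* to *Htr1b* (0.87), *Ccdc6* (0.86) and *As3mt* (0.84). These libraries share the same sequencing and each search covered many genes, so these r values are the top of a long list and carry no test. *Tac2*, *Tacr3*, *Esr1*, *Pgr* and *Gnrh1* were in the genes searched and none was among the closest 3 of another member, whereas *Kiss1*, *Esr2* and *Cyp19a1* lay under 1 CPM on average and could not appear.

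Around the members, 85 further genes of the axis in 5 lists were examined, of which 72 were tested. None of the 72 passed for ASIC1a-/- against WT at either time or averaged, or for the interaction. For ZT13 against ZT1, 4 were higher and 4 lower in ASIC1a-/- mice, 11.1% of the 72 against 11.3% of all tested genes, and 5 were higher and 1 lower in the WT mice, 8.33% against 13.3%. The lists as a whole therefore lay at or under the background, and the genes that passed are named by role.

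Of 15 tested genes for other reproductive peptides and their receptors, *Prlr*, the prolactin receptor gene, was higher at ZT13 in both genotypes. It averaged 45.5 ± 1.58 CPM at ZT13 and 42.2 ± 0.962 CPM at ZT1 in ASIC1a-/- mice (log2 fold change 0.11, SE 0.0330, adjusted p = 0.0397 by edgeR), and 46.6 ± 1.06 CPM at ZT13 and 40.2 ± 1.02 CPM at ZT1 in the WT mice (0.21, SE 0.0331, adjusted p = 0.000457). *Ntsr1*, a neurotensin receptor gene, was lower at ZT13 in ASIC1a-/- mice, at 24.6 ± 1.67 CPM against 29.4 ± 2.76 CPM at ZT1 (-0.26, SE 0.0671, adjusted p = 0.0186 by edgeR), and had -0.19 in the WT mice (SE 0.0679, adjusted p = 0.0789). The other 13 did not pass in any comparison.

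Of 15 genes for the development and fate of GnRH neurons, *Prok2* and *Dlx5* passed. *Prok2*, which encodes a secreted signal of the suprachiasmatic nucleus that also guides GnRH neuron migration, averaged 0.309 ± 0.119 CPM at ZT13 and 0.901 ± 0.0803 CPM at ZT1 in ASIC1a-/- mice (log2 fold change -1.54, SE 0.396, adjusted p = 0.0172 by edgeR). It passed the filter through 2 libraries, both of ZT1, where it is high, so that it could enter the test only as a gene high at that time. In the WT mice its log2 change was -1.02 (SE 0.428, adjusted p = 0.130). *Dlx5*, a homeobox gene of forebrain inhibitory neurons, averaged 4.89 ± 0.505 CPM at ZT13 and 3.55 ± 0.340 CPM at ZT1 in the WT mice (0.46, SE 0.123, adjusted p = 0.0183), the comparison in which *Gnrh1* also passed. In ASIC1a-/- mice the log2 change of *Dlx5* was 0.33 (SE 0.123, adjusted p = 0.0962).

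Among 18 tested genes for other steroid receptors and their co-regulators, *Fkbp5*, a co-chaperone of steroid receptors that glucocorticoids induce, changed most. It averaged 39.8 ± 3.88 CPM at ZT13 and 30.6 ± 2.73 CPM at ZT1 in ASIC1a-/- mice (log2 fold change 0.38, SE 0.0740, adjusted p = 0.00322 by edgeR), and 45.3 ± 4.08 CPM at ZT13 and 28.4 ± 1.19 CPM at ZT1 in the WT mice (0.67, SE 0.0742, adjusted p = 1.58e-05). *Ncoa1*, a steroid receptor coactivator gene, was higher at ZT13 by 0.09 in ASIC1a-/- (SE 0.0263, adjusted p = 0.0315) and by 0.09 in the WT mice (SE 0.0264, adjusted p = 0.0347). *Ncoa3*, of the same family, was higher in the WT mice by 0.16 (SE 0.0412, adjusted p = 0.0138), with 0.12 in ASIC1a-/- mice (SE 0.0410, adjusted p = 0.0659). *Fkbp4*, a co-chaperone needed by the progesterone receptor, was lower at ZT13 in ASIC1a-/- mice, with a log2 change of -0.11 (SE 0.0349, adjusted p = 0.0448 by edgeR) beside -0.04 in the WT mice (SE 0.0350, adjusted p = 0.542).

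Of 13 tested genes for steroid synthesis and conversion, *Por*, the electron donor of aromatase and other microsomal P450 enzymes, was higher at ZT13 in ASIC1a-/- mice by 0.10 on the log2 scale (SE 0.0289, adjusted p = 0.0284 by edgeR), beside 0.07 in the WT mice (SE 0.0290, adjusted p = 0.1003). *Hsd17b12*, a hydroxysteroid dehydrogenase gene, was lower there, with a log2 change of -0.13 (SE 0.0334, adjusted p = 0.0190), beside -0.09 in the WT mice (SE 0.0335, adjusted p = 0.0713). *Srd5a3*, of the steroid 5-alpha-reductase family, was lower at ZT13 in the WT mice, with a log2 change of -0.17 (SE 0.0566, adjusted p = 0.0498 by edgeR), just under the threshold. In ASIC1a-/- mice it had a value of 0.06 (SE 0.0564, adjusted p = 0.561), and the interaction was 0.23 (SE 0.0799, unadjusted p = 0.00983, adjusted p = 1.00 by edgeR). For none of the genes named from these lists did the interaction pass. Besides *Srd5a3*, *Fkbp5* (-0.30, SE 0.105, unadjusted p = 0.0109) and *Prlr* (-0.10, SE 0.0467, unadjusted p = 0.0398) had an unadjusted p under 0.05 for it by edgeR. Of all tested genes 3.91% did.

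The last list held 11 genes known in mice to respond to sex hormones in the hypothalamus, and 0 of 11 passed in any of the 6 comparisons. *Greb1* and *Sytl4* are given only because they had the smallest unadjusted p of the 11 in any comparison, so their p values are extremes of many tests. *Greb1*, an oestrogen-induced gene, averaged 6.29 CPM in the ASIC1a-/- mice, and 6.72 CPM in the WT mice at ZT13, and 6.72 CPM in the ASIC1a-/- mice, and 5.58 CPM in the WT mice at ZT1 (interaction -0.36, SE 0.150, unadjusted p = 0.0264, adjusted p = 1.00 by edgeR). *Sytl4* averaged 55.9 CPM in the ASIC1a-/- mice, and 57.0 CPM in the WT mice at ZT13, and 59.3 CPM in the ASIC1a-/- mice, and 54.4 CPM in the WT mice at ZT1 (interaction -0.15, SE 0.0643, unadjusted p = 0.0299, adjusted p = 1.00 by edgeR). The median log2 fold change of the 11 was -0.04 for ASIC1a-/- against WT at ZT13, where 1 of 11 was above 0, and 0.01 at ZT1, where 6 of 11 were. For ZT13 against ZT1 it was -0.08 in ASIC1a-/- mice, where 0 of 11 was above 0, and -0.0046 in the WT mice, where 5 of 11 were. The medians of all tested genes were 0.00 at each time, -0.01 in ASIC1a-/- mice and -0.0027 in the WT mice. The share of all tested genes above 0 was not counted, so these counts are description only. For ZT13 against ZT1 the other lists, in the order above, had medians of 0.08, 0.01, 0.0049 and 0.06 in ASIC1a-/- mice. In the WT mice they had -0.03, -0.04, 0.02 and -0.06. For ASIC1a-/- against WT their medians were 0.03, -0.02, -0.02 and 0.02 at ZT13, and 0.01, 0.0045, 0.02 and -0.02 at ZT1.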

How the data were processed

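The 16 libraries came with 1 table each, and the 4 libraries of a group were taken as replicates, each from another mouse. According to the submitters' notes and the study's methods, cutadapt 1.8, STAR 2.5.3a and RSEM 1.2.31 were used (the notes list GRCm38 and mm9 as builds, and labels and methods disagree on the RNA and library kits). The deposited expected counts are RSEM's gene sums, on no common scale. The deposited TPM values were scaled by RSEM for effective length and library. The posterior SD of each count and the transcript length, also deposited, were read as description.

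After rounding, the counts were fitted in edgeR 4.0.16 (R 4.3.3) by quasi-likelihood with TMM scaling and a mean per group over all 16 libraries. The filter was that of the study's methods, above 1 CPM in 1 library or more. P values were adjusted by Benjamini-Hochberg over the 15808 genes of a comparison, with calls under 0.05. The common biological coefficient of variation was 6.06%, and totals of 34888522 to 42326259 leave a counting error that is given beside the spread of each member. GENCODE release M21 (GRCm38) named 55141 of 55401 identifiers and gave positions and printed sequences. The test was checked on simulated data.

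The 8 members, the lists, the rule for named genes (all members, and from each list the genes called or, where none was, the 2 with the smallest p) and most alternatives were chosen with earlier results of these data known. Alternatives were other scalings and filters, DESeq2 1.42.0, limma 3.58.1 on log2(TPM + 1) and log2(TPM + 0.1), a fit of only the groups compared, the replicate number as a block, and omission of libraries. The sum of *Kiss1* with *Gm28040* was added after the data were seen. A further marker gene and an alternative based on it are not reported here.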

Additional observations from a re-analysis of the deposited data

Results flagged for a closer look

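In 3 of 32 groups of 4 mice (8 genes in 4 groups), a single library lay far from the other 3 by Dixon's test of the gap over the range. Chance would mark about 1 group in 20. *Kiss1* was at 0.225 CPM in WT ZT1 replicate 3, where the other WT mice at ZT1 were at 0 in rounded counts. Beside 3 zeros any value above 0 gives the largest possible ratio of 1. This flag was therefore fixed by the floor, and the rate of 1 in 20 does not hold for it. *Tac2* was at 21.9 CPM in ASIC1a-/- ZT1 replicate 1, where the next highest was at 20.1 CPM. *Esr2* was at 0.476 CPM in ASIC1a-/- ZT1 replicate 2, where the next lowest was at 0.696 CPM.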

How the results depend on the processing

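The number of tested members that passed was 0 for ASIC1a-/- against WT at ZT13, at ZT1 and averaged, for ZT13 against ZT1 in ASIC1a-/- mice and for the interaction under every alternative run (25 or 26 each). For ZT13 against ZT1 in WT mice it was 1 (*Gnrh1*) in 20 of 26 alternatives, and 0 to 1 when each library was left out in turn. With the replicate number as a block, *Gnrh1* had a log2 fold change of 0.75 (adjusted p = 0.0351). Same-numbered libraries correlated by -0.32 to 0.22 in their deviations from group means. With 4 pairs per comparison, this does not decide whether the numbers paired the mice.

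The count of all genes that passed moved by over 1.5 times in several comparisons. For ASIC1a-/- against WT it was 16 at ZT13, against 29 without the low-count filter and 30 by DESeq2. At ZT1 it was 2, against 15 without the filter and 7 by DESeq2. For ZT13 against ZT1 in WT mice it was 2099, against 879 to 2197 over the alternatives, and in ASIC1a-/- mice 1792, against 969 to 1919. For the average it was 10, against 6 to 23, and for the interaction 3, against 2 to 17. No scaling moved the median of all genes by 0.1 on the log2 scale.

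*Gnrh1*, *Esr2* and *Cyp19a1* are limited by their low counts, and *Kiss1* by the division of its reads with *Gm28040*. Groups of 4 mice bound the changes of the other members more closely.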
